A study of Mus musculus with 3 samples.

Results

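The ubiquitin-specific proteases (gene symbols Usp) are the largest family of deubiquitinases, enzymes that take ubiquitin off other proteins. Small RNAs matching their mRNAs were examined in immunoprecipitates of mouse testis. The members are the 56 protein-coding genes, of 21951 in GENCODE vM21, whose symbol is Usp followed by a digit. They were chosen by symbol alone, so they include Usp6nl, which is no family member but a GTPase-activating protein of Rab GTPases, and members without an active protease site such as Usp39, and the related genes Uspl1 and Cyld are not members. The deposited list held 2219118 distinct sequences, of which 7211 matched the exons of Usp genes in the sense direction and 199 in the antisense direction, over their whole length and without a mismatch.

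The study sequenced small RNAs from testis of C57BL/6 mice in 3 immunoprecipitates, 1 library each. The precipitated proteins were Tdrd1 from adults (no genotype is given for this library), Mili from adult wild-type mice, and Mili from Tdrd1-knockout mice at 15 days after birth. Mili is a Piwi protein of germ cells and Tdrd1 a Tudor-domain protein that binds it. The wild-type and knockout libraries therefore also differ in age. Because the rows of the list name neither library, read number nor strand, no Usp gene could be compared between Tdrd1 and Mili or between wild type and knockout, and Tdrd1 itself could not be checked in the knockout. Each value below counts distinct sequences in the pool, a rare and an abundant RNA weighing the same, and has no replicates. The depth of the libraries is unknown. Intervals given for shares are exact Clopper-Pearson 95% intervals and cover counting error only, and neighbouring sequences of 1 mRNA are not independent.

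Piwi proteins carry piRNAs, small RNAs that silence transposons in germ cells. Besides transposons and dedicated clusters, many mRNAs of germ cells are cut into piRNAs, often along their 3′ untranslated regions, and such piRNAs usually start with U. Ubiquitin-specific proteases remove ubiquitin from histones, from proteins on their way to the proteasome, and from receptors and organelles. Several are known for roles in spermatogenesis, in which histones are ubiquitinated and later replaced.

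The sequences below show what was counted for the 10 Usp genes with the highest density. For each gene the 5′ end with the most listed 3′ ends is given, with its longest sequence of at most 30 nt. They are written 5′ to 3′ as DNA (T for U), with the 5′ base in capitals.
Usp26: Tgtcactgtagcaaaagcacaaaaccgccc
Usp12: Tacgataaagcaaagactgtggattaacat
Usp31: Tggacaagaaaatgaaaaggtgtcagtccc
Usp49: Tacagaccagcacaagaaccagatatctcc
Usp22: Tgattgtactgtggttaggagttttatta
Usp27x: Tgtgaaggaaattaagtggcaggagtgttc
Usp37: Tggagaacttcgagcagttgaaatgatgag
Usp39: Taggagtaaacgtgaagtcagcagcagcct
Usp6nl: Tatagacatgtagctgaggatattaatttc
Usp32: Taaaatcgattgtggagaagacagagcttt
All 10 start with U. Of the 66 Usp 5′ ends with 5 or more 3′ ends, 63 were U. The U of these 10 sequences thus follows in part from how they were chosen. The first, of Usp26, lies in the coding sequence at chrX:49108930-49108959 on the minus strand (mm9) and was listed with 7 different 3′ ends, from 26 to 32 nt. That of Usp12 lies in the 3′ untranslated region at chr5:147549089-147549118, minus strand, with 7 ends. The 5′ end with the most 3′ ends among these 10 was that of Usp49, at chr17:47822803-47822832 on the plus strand, with 9 ends from 25 to 33 nt in the 3′ untranslated region. Those of Usp31 (chr7:128786925-128786954), Usp22, Usp27x, Usp37, Usp39 and Usp6nl are also in 3′ untranslated regions, and that of Usp32 is in the coding sequence.

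Usp mRNAs were represented unevenly, from almost 100 sequences per kb to none. Of the 56 genes 50 had at least 1 sense sequence (89.3%), where 71.0% of all protein-coding genes did. At least 50 sense sequences were found for 34 Usp genes (60.7%), against 27.3% of all. Per kb of merged exon, the length of all annotated exons of a gene counted once, the median over the 56 genes was 9.22 sense sequences and that over all protein-coding genes 2.89. Among genes with at least 1 sense sequence the medians were 12.3 and 7.53. Usp exons are longer than those of other genes, with a median of 6543 bp against 3498 bp over all protein-coding genes. The 5 genes with most sequences held 39.4% of the Usp total and the first 10 held 59.3%.

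**Figure D1:**
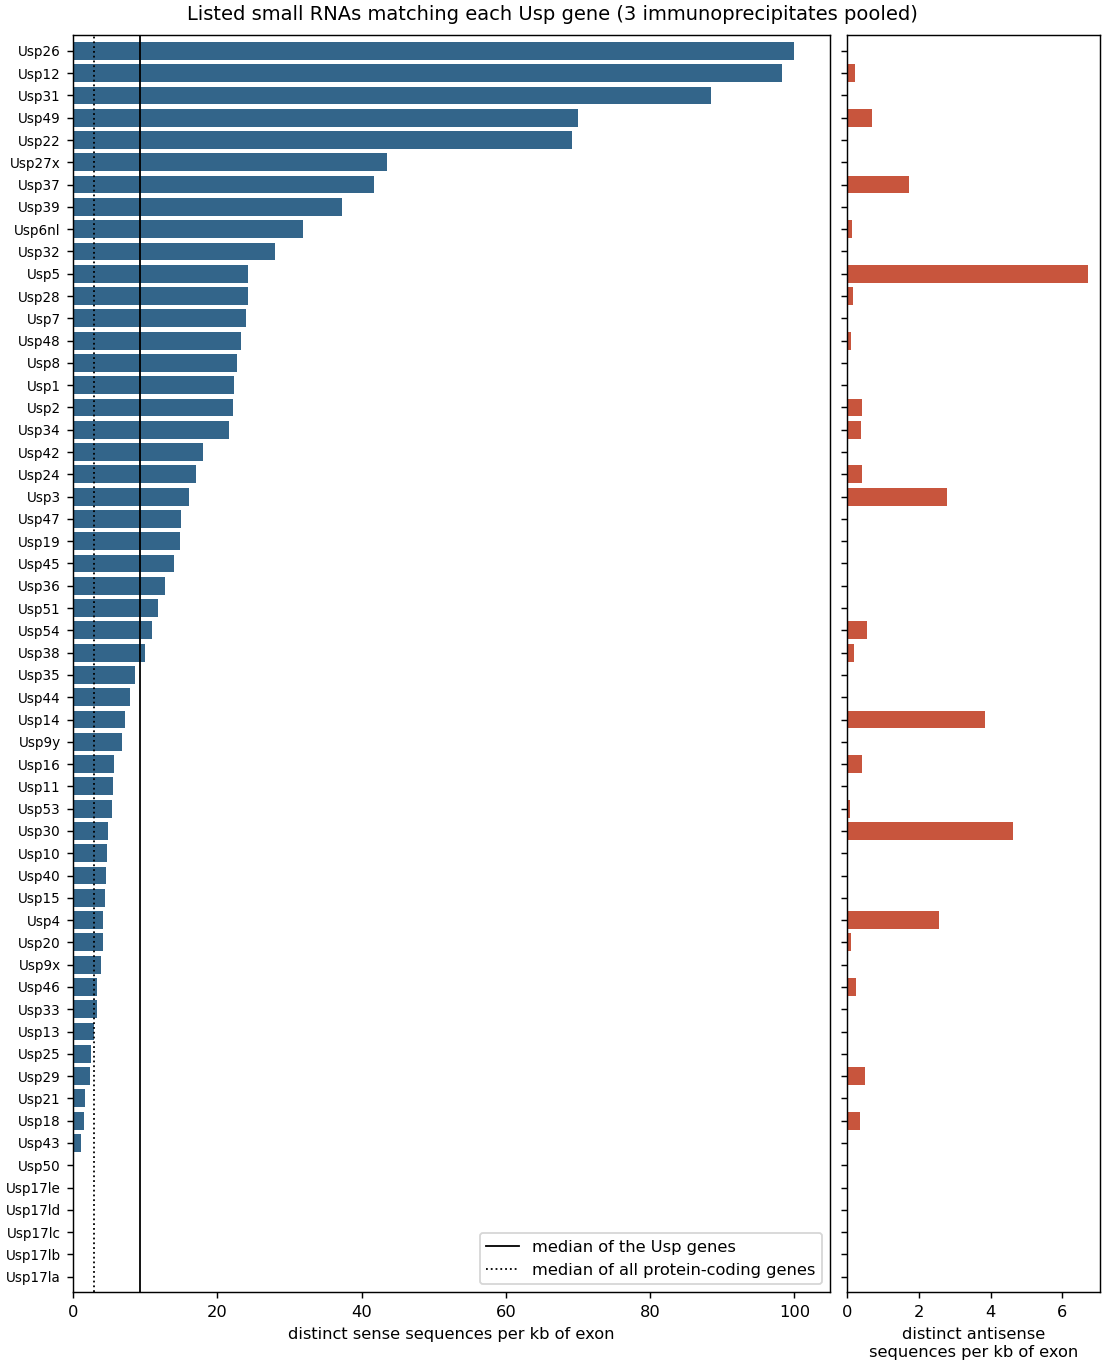
Each bar is 1 Usp gene; the left panel gives distinct sense sequences per kb of exon and the right panel antisense ones, on its own scale, for the 3 immunoprecipitates pooled. Usp26, Usp12 and Usp31 stand above 88 per kb, the Usp median (solid line) is 9.22 and the median of all protein-coding genes (dotted line) is 2.89.

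Usp26, an X-linked gene known for expression in male germ cells, had the highest density of the family. It matched 413 sense and 0 antisense sequences, 99.9 per kb, more than 99.0% of all protein-coding genes. They lay between 49107160 and 49154224 of chromosome X (mm9). Usp12, whose protein works with a WD-repeat cofactor, followed with 456 sense sequences (98.3 per kb) and 1 antisense. Usp31 had the most sequences of the family, 911, at 88.4 per kb between 128785568 and 128822960 of chromosome 7, and stood 85th among all protein-coding genes by number. Usp49 had 600 (69.9 per kb) and Usp22, the catalytic subunit of the deubiquitinase module of the SAGA coactivator, 338 (69.2 per kb). These 5 genes were the only Usp genes above 50 per kb, 8.93% of the family, where 4.51% of protein-coding genes stood that high. Of the 600 sequences of Usp49, 316 also match Gm20517, an overlapping gene annotated on the same strand, so that those cannot be given to 1 of the genes alone. With only sequences of a single gene, Usp49 stood at 33.1 per kb and was no longer above 50, which left 4 Usp genes (7.14%, against 4.0% of protein-coding genes).

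The next 5 genes stood between 28.0 and 43.5 per kb. Usp27x, an X-linked relative of Usp22, had 186 sequences (43.5 per kb). Usp37, a regulator of the cell cycle, had 462 (41.7), and Usp39, a splicing factor without protease activity, had 91 on a short mRNA (37.2). Usp6nl had 257 (31.9) and Usp32 had 215 (28.0). Usp34, with the longest merged exons of the family (18453 bp), had 399 sequences but 21.6 per kb, and Usp48 had 225 at 23.2 per kb. Density and exon length were weakly related over the 56 genes (Spearman's rho 0.13, a description).

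At the other end, 0 sequences of either strand matched Usp50 and the 5 Usp17-like genes Usp17la, Usp17lb, Usp17lc, Usp17ld and Usp17le. The Usp17-like genes are close copies of each other on chromosome 7. How the authors placed RNAs with several genome positions is not known here, and its part in these zeros was not tested. Usp18, which removes the ubiquitin-like protein ISG15, had 4 sense sequences (1.43 per kb), Usp43 had 5 (1.05 per kb) and Usp21 had 8 (1.68 per kb).

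The histone deubiquitinases spanned most of the range of the family. All 13 genes of this group had sequences, with a median of 16.1 per kb, from 98.3 for Usp12 to 1.68 for Usp21. Among those known for histone H2B, Usp22, Usp27x and Usp49 stood at 43.5 per kb or more (Usp49 at 33.1 without shared sequences), with Usp51, a further relative of Usp22, at 11.8 (26 sequences) and Usp44, also known from the spindle checkpoint, at 7.94 (32). Among those known for histone H2A, Usp3 stood at 16.1 (110 sequences), Usp16 at 5.71 (54) and Usp21 at 1.68. Usp42 stood at 17.95 (112), the nucleolar Usp36 at 12.7 (98), Usp7 at 23.95 (186) and Usp46 at 3.32 (26).

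Genes of genome stability and the cell cycle had a median of 18.6 per kb over 10 members. Usp37 led with 41.7, followed by Usp28, which acts in the DNA damage response, with 24.2 (141 sequences). Usp7, which stabilises Mdm2 and p53, stood at 23.95 and Usp1, which deubiquitinates Fancd2 and PCNA, at 22.2 (83). Usp47 stood at 15.0 (206), Usp45 at 14.0 (87), Usp11 at 5.49 (26) and Usp4 at 4.17 (36). Usp7 and Usp44 belong to this group and to the histone group.

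The members that serve the proteasome and free ubiquitin chains differed from each other. Usp5, which takes apart unanchored ubiquitin chains, had 112 sense sequences (24.2 per kb), and its homolog Usp13 had 22 (2.90). Usp14, a subunit bound to the proteasome, had 60 (7.19). The 7 genes of endosomes, membranes, mitochondria and the endoplasmic reticulum had a median of 4.71 per kb. Usp8, which acts in endosomal sorting and in the sperm acrosome, stood out among them at 22.7 (95 sequences) and the membrane-anchored Usp19 at 14.8 (104). Usp30 of the mitochondrial outer membrane stood at 4.78 (29), Usp10 at 4.71 (45), Usp20 at 4.10 (37), Usp9x at 3.85 (58) and Usp33 at 3.31 (32). The 4 genes listed for immune signalling had the lowest median of the groups, 3.34 per kb, with Usp15 at 4.46 (74) and Usp25 at 2.50 (13). Usp54 and Usp53, listed in the same group as Usp39, stood at 10.9 (99) and 5.41 (68), both below it.

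Among genes tied to germ cells or the sex chromosomes, Usp26 (first of the family by density) and Usp27x (sixth) stood highest. Usp2, which has a testis isoform, had 107 sequences (22.2 per kb), and the imprinted gene Usp29 had 41 (2.27 per kb over merged exons of 18078 bp). Usp9y, on the Y chromosome, had 55 sequences (6.80 per kb). They made up 14.1% of the 391 sequences listed on that chromosome. Its X-linked homolog Usp9x had 58 sequences (3.85 per kb). The 5 X-linked Usp genes had a median of 11.8 per kb (range 3.85 to 99.9), the 50 autosomal ones 9.22, and the 948 X-linked protein-coding genes 0.818. All 5 X-linked Usp genes had sense sequences, and the 581 X-linked protein-coding genes with at least 1 had a median of 4.69.

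Close relatives within the family were often far apart. Usp12 and Usp46, which share their cofactor, stood at 98.3 and 3.32 per kb, a ratio of 29.6. Usp31 and Usp43 stood at 88.4 and 1.05 (ratio 83.9, with 5 sequences for Usp43), Usp28 and Usp25 at 24.2 and 2.50 (9.67), Usp5 and Usp13 at 24.2 and 2.90 (8.37), and Usp22 and Usp51 at 69.2 and 11.8 (5.86). Other pairs differed by less than 1.5 times: Usp20 and Usp33, Usp15 and Usp4, Usp11 and Usp15, Usp38 and Usp35, Usp34 and Usp24. Without sequences shared with another gene, antisense partners included, Usp38 stood at 5.58 per kb, below Usp35 at 8.51. Usp33 then stood at 1.34, against 4.10 for Usp20, and these pairs were more than 1.5 times apart. Usp34 stood at 15.4, below Usp24 at 17.1. Usp9y exceeded Usp9x 1.76 times and Usp54 exceeded Usp53 2.02 times. No sequence matched more than 1 Usp gene of its listed chromosome. As most of these relatives lie on different chromosomes, matches to other chromosomes were also counted. Only 1 of the Usp sequences matched a transcript of another chromosome. With matches on any chromosome, the Usp genes had 7223 sense sequences in place of 7211. How the authors placed RNAs with several genome positions is not known here. Sequences shared between relatives may be missing from the list, so these counts cannot show how much the relatives share.

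Other genes of the ubiquitin system were also represented. The 34 genes listed as other deubiquitinases and related proteins all had sequences, with a median of 19.5 per kb, and 23 had 50 or more. They were led by Vcpip1 (1024 sequences, 105 per kb), Otud3 (97.1 per kb), Otud4 (90.7), the neuronal and germ cell hydrolase gene Uchl1 (69.9) and Cops5 (53.6). The 32 genes of ubiquitin-conjugating (E2) enzymes had a median of 8.69 per kb, and 14 had 50 or more sequences, led by Ube2z (69.1), Ube2h (48.5) and Cdc34 (43.3). The 12 genes of ubiquitin and activating (E1) enzymes had a median of 14.3 per kb and 5 had 50 or more sequences, led by Sae1 (57.0), which activates SUMO, and the polyubiquitin gene Ubb (25.1). The 40 genes with symbols of proteasome subunits (Psmc3ip, which is no subunit, among them) had 23.9 and the 41 Zbtb genes of zinc finger transcription factors 24.4. The Usp median of 9.22 lay below these and near that of the E2 enzymes. Every gene of these lists had sense sequences, whereas 6 Usp genes had 0. Among Usp genes with at least 1, the median was 12.3. Median exon length also differed, with 6543 bp for Usp genes and 2814 bp for the proteasome list. No test of these differences was made.

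The germ cell genes Dazl, Stra8, Sycp3 and Ldhc, picked for orientation and no full list, stood at 81.4 to 165 per kb. All 16 somatic markers stood below them, the highest being Star at 19.0. Because the germ cell genes were picked, this is no comparison of germ cell genes with somatic genes as classes. The 7 Sertoli cell markers had a median of 2.56 per kb, from 0 for Rhox5 to 12.2 for Cst12 and 15.1 for Ctsl (98 sequences). The 5 Leydig cell markers had a median of 0.208, with 0 for Cyp17a1 and Hsd3b6 but 11.2 for Insl3. Star, Ctsl, Cst12 and Insl3 thus stood above the Usp median of 9.22. The peritubular and immune markers stood between 0 and 5.57, with Myh11 and Ptprc at 0.

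The Usp sequences had the size and first base of those from other mRNAs. The most common length was 27 nt (26.1%), the mean 27.5 ± 1.58 nt (SD over sequences), and 74.8% measured 24 to 28 nt, the size of Mili-bound piRNAs. For other protein-coding genes the mean was 27.4 ± 1.60 nt and the share 75.9%. The labels give a gel cut around 28 to 30 nt, whose part in these lengths was not tested. Of 7157 sense sequences of 24 to 32 nt, 66.7% (65.6 to 67.8%) started with U, against 67.7% (67.6 to 67.8%) for other protein-coding genes. U makes up 26.0% of the bases of the Usp transcripts and was found in 18.2% at position 2. Longer sequences had U more often: the share was 62.8% for 25 nt, 64.2% for 27 nt and 74.4% for 30 nt.

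**Figure D2:**
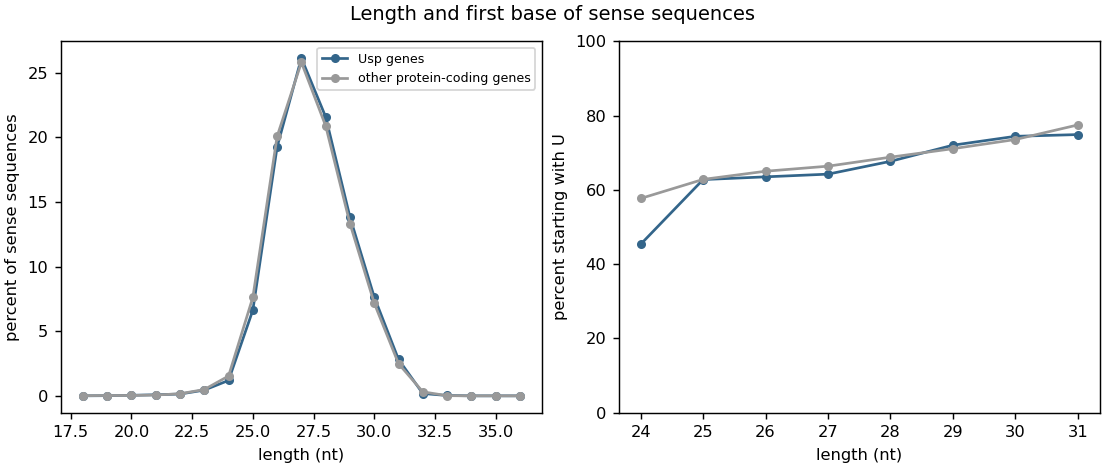
The left panel gives the share of sense sequences at each length in nt, and the right panel the share starting with U for 24 to 31 nt, for Usp genes and for all other protein-coding genes. Both sets peak at 27 nt, and the U share rises with length in both, to 74.4% at 30 nt for the Usp genes.

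The first base was tied to how many 3′ ends a 5′ end had. The 7211 sense sequences had 5228 distinct 5′ ends, 1.38 sequences per end, against 1.42 over all protein-coding genes. Of the 3976 Usp 5′ ends seen with a single 3′ end 54.5% were U (52.9 to 56.1%). The share was 74.6% (71.4 to 77.6%) for ends with 2 and 84.8% (80.9 to 88.2%) for ends with 3 or 4. Of the 66 ends with 5 or more, 63 were U, 95.5% (87.3 to 99.1%). Other protein-coding genes had 56.1, 73.1, 83.5 and 91.3% in the same order, and the rise was seen in both.

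Signs of the amplification (ping-pong) cycle, in which sense and antisense piRNAs overlap by 10 nt at their 5′ ends and the later one carries A at position 10, were not seen in Usp genes. A stood at position 10 in 30.8% of sense sequences (29.7 to 31.9%), next to 32.3% at position 9 and 31.6% at position 11. Sense and antisense sequences of the same gene formed 63 pairs overlapping by 1 to 20 nt at their 5′ ends. Of these, 0 overlapped by 10 nt, and the other overlaps held 3.32 ± 2.33 pairs (SD over 19 overlaps) and at most 7. Overlaps of 1, 4 and 12 nt also held 0 pairs. With so few pairs, the number at 10 nt cannot show whether such a signal is present or absent.

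The base after the 3′ end was U in 27.9% of Usp sequences (26.8 to 28.9%). At the next 4 bases the share was between 25.03% and 26.8%. Other protein-coding genes had 26.0% at the base after the end and 24.6 to 25.1% beyond. A 5′ end directly after a 3′ end of the same gene was found 268 times, 1.11 times the mean over distances of 1 to 50 nt, and the ratio was 1.10 for other genes. A distance of 11 nt was found more often, 282 times.

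Where the sequences lay in the mRNA differed from gene to gene. Of 7124 sequences matching coding transcripts, 52.1% (51.0 to 53.3%) had their midpoint in the 3′ untranslated region, 45.0% in the coding sequence and 2.89% in the 5′ untranslated region. The same transcripts, weighted by their sequences, consist to 39.9% of 3′ untranslated region, 54.4% of coding sequence and 5.66% of 5′ untranslated region. Other protein-coding genes had 51.3% in 3′ untranslated regions with 45.6% of the length. The excess rested in part on Usp31, which held 12.6% of all Usp sequences. Without it 46.7% lay in 3′ untranslated regions that made up 36.9% of the length. Of the 34 Usp genes with 50 or more sense sequences, 24 (70.6%) had a larger share in the 3′ untranslated region than its length gives, against 57.5% of 5969 such protein-coding genes. Sequences that span exon junctions are mostly absent from the list, while these lengths are of spliced transcripts with their junctions. How far this shaped the shares, here and by gene below, was not tested.

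In Usp31 89.4% of sequences lay in the 3′ untranslated region, which is 60.4% of its length. Usp45 had 89.7% (58.9% of its length), Usp22 86.1% (60.6%), Usp6nl 82.1% (55.1%), Usp12 80.9% (66.3%), Usp49 73.0% (64.5%) and Usp37 68.0% (48.5%). In Usp39 the excess was large for a short region, with 58.9% of sequences on 22.9% of the length. A single stretch of 500 nt near the end of that mRNA held 70.0% of its sequences.

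Usp26 had the opposite layout, with 76.0% of its sequences in the coding sequence and 15.3% in the 3′ untranslated region, which is 22.5% of its length. They covered 63.1% of the bases of its mRNA, the most of any Usp gene with 50 or more sequences. The median covered share of those genes was 28.9% and the lowest 9.36%, in Usp9x. Usp34, Usp19 and Usp32 also had most sequences in coding sequence, but near its share of the length: 85.2% on 87.5% in Usp34, 90.4% on 87.9% in Usp19 and 68.4% on 69.8% in Usp32. Usp15 had 17.6% of its sequences in a 3′ untranslated region that makes up 56.0% of its length, and Usp9x had 0 of 58 in one that makes up 25.3%.

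**Figure D3:**
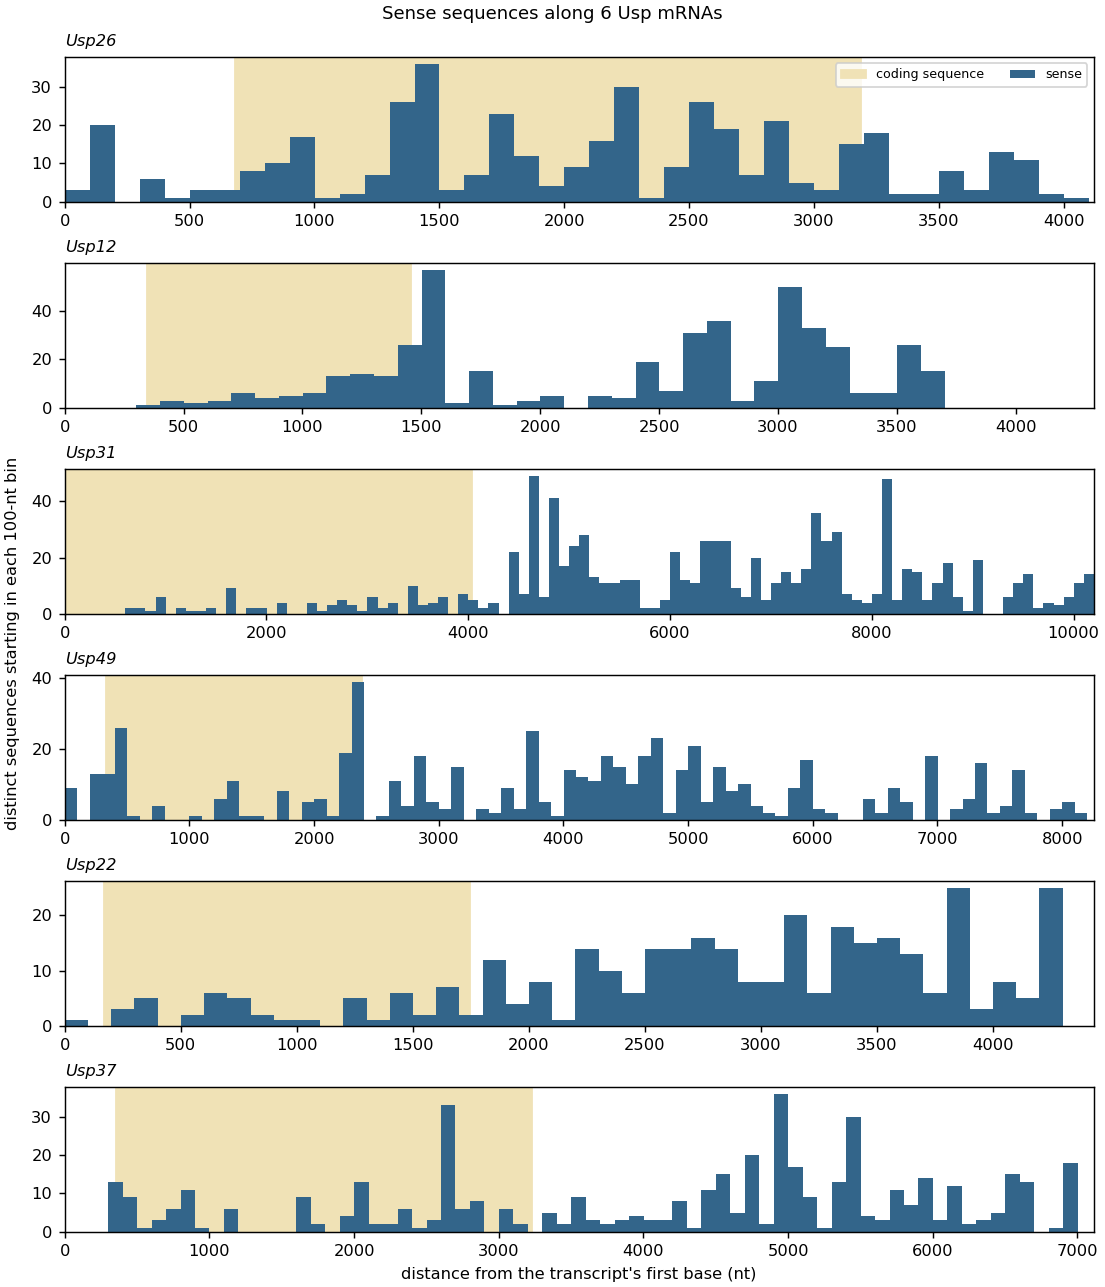
Distinct sense sequences by the position of their 5′ end, in bins of 100 nt from the transcript's first base, for 6 Usp mRNAs with the coding sequence shaded. Each panel uses the annotated coding transcript with the most matches. Bars fill the coding sequence of Usp26, whereas in Usp31 and Usp22 most lie to the right of it (89.4% and 86.1% in the 3′ untranslated region).

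The share starting with U followed the part of the mRNA. It was 74.4% (73.0 to 75.8%) in 3′ untranslated regions of Usp genes, 58.6% (56.8 to 60.3%) in coding sequence and 61.6% (54.5 to 68.4%) in 5′ untranslated regions, where U makes up 30.5, 23.9 and 18.8% of bases. Other protein-coding genes had 75.3, 59.4 and 63.0% in the same order. In 27 of the 31 Usp genes with at least 10 sequences in both parts, the share was higher in the 3′ untranslated region than in the coding sequence (87.1%, against 80.6% of 5420 protein-coding genes). The other 4 were Usp27x, Usp39, Usp5 and Usp40. In Usp49 it was 77.4% against 51.8%, in Usp7 76.8% against 48.1% and in Usp31 81.3% against 61.9%. Among the genes with 50 or more sequences it ran from 41.9% in Usp8 (31.8 to 52.6%) and 43.7% in Usp19 (33.9 to 53.8%) to 79.2% in Usp31 (76.4 to 81.8%), with a median of 64.1%. The median over all such protein-coding genes was 66.7%. Usp24 had 76.6% (70.2 to 82.1%) although 59.2% of its sequences are coding, and Usp26 had 71.1% (66.5 to 75.4%). Across these 34 genes the share in the 3′ untranslated region and the share with U had a Spearman's rho of 0.30, a description over genes that share the libraries and whose base composition differs between the parts.

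**Figure D4:**
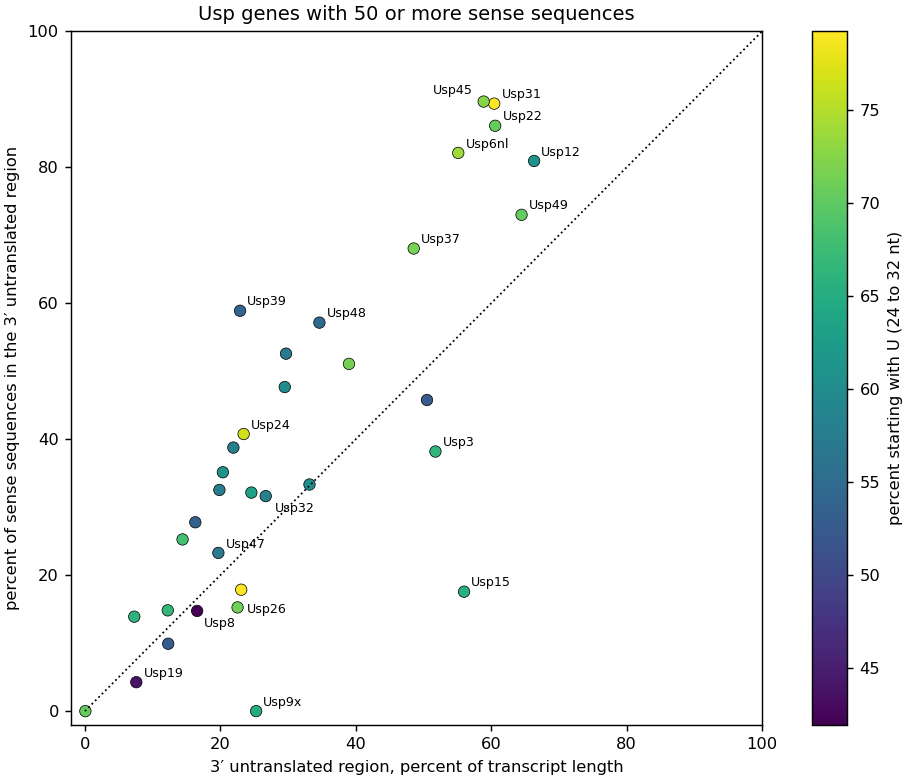
Each point is 1 of the 34 Usp genes with 50 or more sense sequences. The horizontal axis is the 3′ untranslated region's percent of transcript length, the vertical axis the percent of sense sequences lying in it, and the colour the percent starting with U; 24 points lie above the dotted line of equality, Usp31 and Usp45 highest, and Usp15, Usp3 and Usp9x lie well below it.

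Sequences were denser on exons than between them. In 46 Usp genes whose range of sense sequences was over 2 times the exon length, exons held 18.4 sense sequences per kb. The rest of their ranges, 2341 kb in all, held 820 sequences that match no annotated exon, 0.350 per kb on both strands together. Of the 7410 matches to Usp genes 50 crossed an exon junction in each transcript they matched. The list gives every sequence an unbroken stretch of genome, so most sequences that span junctions would not be in it.

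Antisense sequences were few, and close to 1 in 2 were also sense sequences of a neighbouring gene. The family had 36.2 sense sequences per antisense one, and 25.1 over all protein-coding genes. At least 1 antisense sequence was found for 22 Usp genes (39.3%, against 30.0% of all protein-coding genes), and 5 or more for 11 (19.6%, against 8.61%). No Usp gene had more antisense than sense sequences, as 4.68% of all genes did. Of the 199 antisense sequences, 98 (49.2%) matched another gene in the sense direction. This share is not given for all protein-coding genes, so it cannot be read as particular to the family. For the genes concerned, these sequences cannot be read as made against the Usp mRNA.

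In Usp14, Usp30, Usp37, Usp29 and Usp34, where another gene's exons overlap on the opposite strand, most antisense sequences matched that gene. This did not hold for each such overlap. Only 1 of the 4 antisense sequences of Usp16 matched the overlapping Cct8, and the 2 of Usp46 did not match its opposite-strand genes. Usp14 had 60 sense and 32 antisense sequences, and 31 of the latter are sense to Thoc1, a gene of mRNA export whose exons overlap its 3′ end. Usp30 had 29 sense and 28 antisense, 26 of them sense to Alkbh2, a DNA repair gene with 53.8 sense sequences per kb, more than 10 times the density of Usp30 itself (4.78). All 19 antisense sequences of Usp37 are sense to Cnot9, a subunit of the deadenylase complex with 60.1 per kb, all 9 of Usp29 are sense to Zim3, and all 7 of Usp34 to Ahsa2. The overlap runs the other way as well: 114 of the 399 sense sequences of Usp34 are antisense to Ahsa2. Usp49 had 6 and Usp24 and Usp54 had 5 each, 4 of those of Usp54 being sense to 2 noncoding genes.

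None of the antisense sequences of Usp5, Usp4 and Usp3 matched an annotated exon of another gene. Their numbers were 31 for Usp5 (112 sense), 22 for Usp4 (36 sense) and 19 for Usp3 (110 sense), and 83.9, 86.4 and 78.9% of them started with U. The examples printed here, each from the antisense 5′ end with the most 3′ ends, show sequences complementary to the mRNA for these genes and, for comparison, for Usp30, with the 5′ base in capitals.
Usp5 antisense: Taaagacagaccggaggctgaggcaga
Usp4 antisense: Tggaaaattctgagagaacaagagaata
Usp3 antisense: Taaaacaaataggcacatgtacttcatca
Usp30 antisense: Tttggcgcttgcagagacttcattttccg
They lie at chr6:124765092-124765118 on the plus strand, chr9:108294672-108294699 on the minus strand, chr9:66364335-66364363 on the plus strand and chr5:114574150-114574178 on the minus strand (mm9), all within 3′ untranslated regions. In Usp30 28 of 28 antisense sequences lie in the 3′ untranslated region. In Usp5 the 16 that match its coding transcript with the most sense matches are spread from base 101 to base 3200 of 3213. Of the 15 of Usp4, 12 lie in the 3′ untranslated region.

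**Figure D5:**
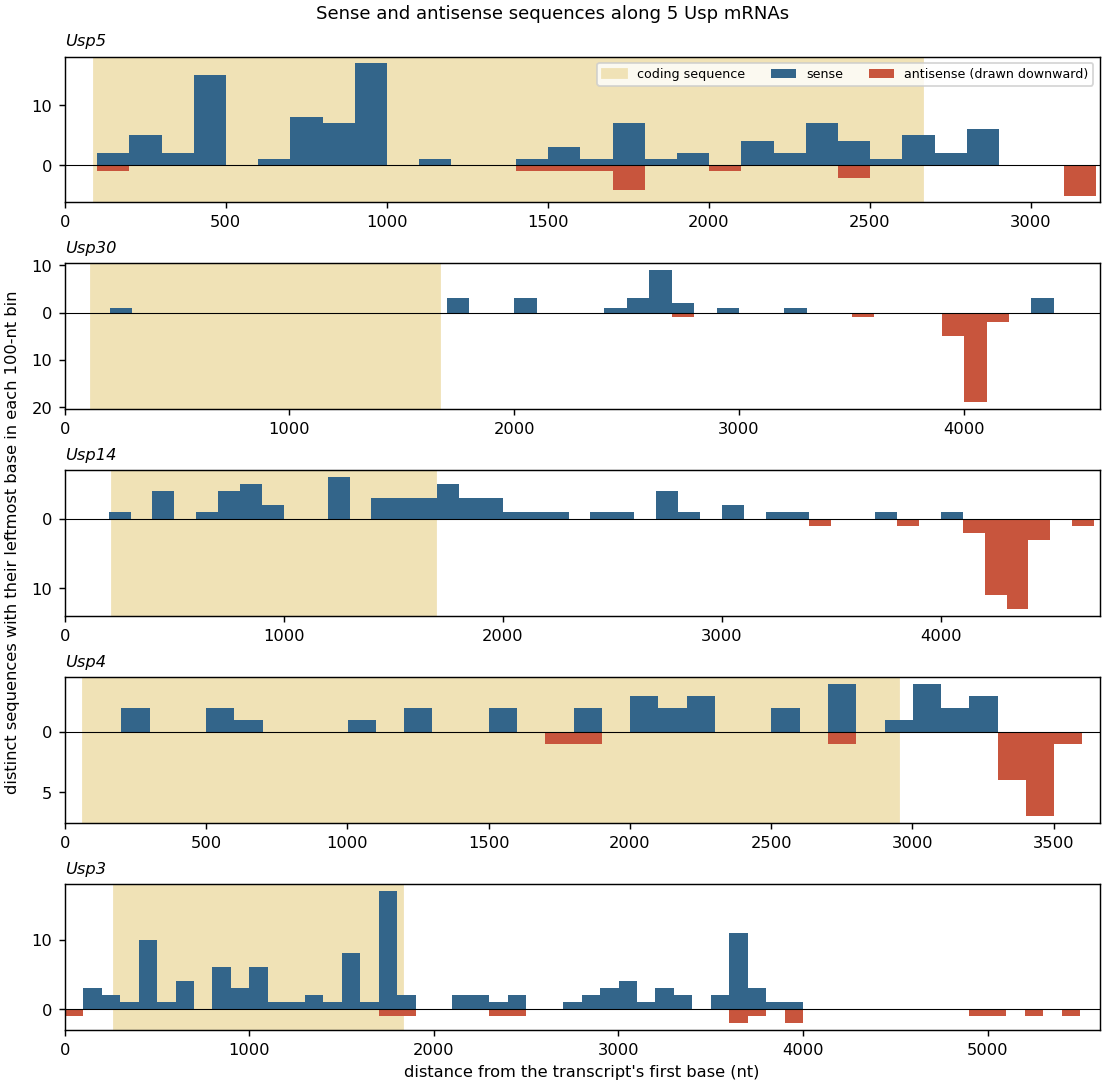
Sense sequences (upward) and antisense sequences (downward) along 5 Usp mRNAs, as distinct sequences per 100-nt bin by their leftmost base on the transcript, with the coding sequence shaded. Antisense bars gather at the right end in Usp30 and Usp14, where another gene is annotated on the opposite strand. They also gather there in Usp4, whose antisense sequences matched no annotated exon of another gene. They are spread along Usp5, and in Usp3 12 of 14 lie in the 3′ untranslated region.

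Where a strand could be called, sequences between the exons of Usp5, Usp4 and Usp3 lay mainly on the strand of their antisense sequences. For sequences that match no exon, strand was read from overlaps of 12 nt or more with other listed sequences, which gave the strand of the match for all 5491 exon matches that could be called. Within the range of Usp5, 60 sequences matched no exon, 6.41 per kb outside exons and the highest of the family. Of these 32 lay on the strand opposite to Usp5, 0 on its own strand and 28 could not be called. In Usp4 29 lay on the opposite strand, 2 on its own and 32 could not be called. In Usp3 these numbers were 20, 0 and 14, and in Usp29 11, 0 and 13. Usp46 had 11, 0 and 5 in the same order, Usp49 4, 2 and 18, and Usp44 3, 0 and 14. In 23 other genes more of the called ones lay on the gene's own strand than on the opposite one. Among them were Usp10 (38 against 0, 15 not called), Usp47 (31 against 0, 11 not called) and Usp30 (30 against 0, 42 not called). Usp42 had 29 against 0 (7 not called), Usp2 28 against 6 (36 not called) and Usp35 26 against 0 (21 not called). Over all 50 genes 247 lay on the gene's strand, 123 on the opposite one and 467 could not be called.

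None of the Usp sequences, sense or antisense, lay in the 100 windows of 20 kb richest in listed sequences, which include the large piRNA clusters. The same count is not given for other protein-coding genes, so this cannot be read as particular to Usp genes. All but 40 of the 7410 matches kept a constant distance between the listed position and the annotated one within their gene. Of the other 40, 34 cross an exon junction and are shifted by up to 12338 nt, and 6 are shifted by 1 base. Copies elsewhere in the genome were not searched. A transcript of another chromosome was matched by 1 of them.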

How the data were processed

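The deposited file is 1 list for the series, with a small RNA sequence, its chromosome and its start and end per row. Its positions are on NCBI mouse build 37 per the file headers (mm9 in the submitters' processing notes). The authors deposited no read number or library in it. The aligner, its mismatches and its treatment of repeats: not given in the sources used here. Per the labels' protocols, RNA from immunoprecipitates was size-selected on a gel with a labelled spike before Illumina small RNA library preparation.

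Each sequence was searched, whole and without mismatch, in either direction, in GENCODE vM21 transcripts (GRCm38), by a seed of 18 nt, and matches on the listed chromosome were kept. The search was tested on simulated data. A gene's 5′ ends and strand follow from the match. Coordinates are those of the list. Untranslated and coding parts were assigned by the midpoint, split equally over matched coding transcripts. The analysis used Python 3.11.15, numpy 2.4.6, pandas 2.3.3 and scipy 1.17.1.

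No test between groups was made, because each has 1 library and the list does not separate them. Genes were named by rule: the 10 highest by density and by number, those with 5 or more antisense or 0 sense sequences, and the members of role groups. The members and lists were chosen with earlier results of these data known. Alternatives covered length, shared sequences, weighting by 5′ end, the chromosome filter and the transcript used.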

Additional observations from a re-analysis of the deposited data

How the results depend on the processing

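Of 34 alternative values 26 stayed within their tolerance (1.5 times for a number or a median, the 95% interval of the main value for a share or a mean) and 8 moved beyond it. With each 5′ end counted once, the U share was 60.6% in place of 66.7%, the share in 3′ untranslated regions 47.8% in place of 52.1%, and the mean length 27.2 nt in place of 27.5 nt. The U share was 64.6% for 24 to 28 nt and 64.9% without Usp31. The 3′ untranslated share was 49.9% with 1 transcript per gene and 46.7% without Usp31. Counting only sequences of 1 gene left 95 of 199 antisense sequences. The settings without Usp6nl, without Usp31 for the 3′ untranslated share, and without the Usp17-like genes were chosen after seeing the data. The median density ranged from 7.78 to 12.4 per kb over its alternatives. No paired analysis was possible because each group has 1 library. Leaving out a library was not possible either, since the list does not separate them. The depth is unknown.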
